A study of Mus musculus with 18 samples.

Results

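The genes described here are markers of tubular injury and keratins of simple epithelia in the mouse kidney: Havcr1, Lcn2, Vcam1, Cd44, Spp1, Clu, Krt8, Krt18, Krt19 and Sox9. Members were chosen by symbol, as every probe set that the platform annotation pairs with 1 of these 10 symbols alone. This gave 18 probe sets of 9 genes, out of 22626 probe sets and 12393 genes with a probe set of their own. The annotation used here pairs no probe set with Spp1 (osteopontin), which is not analysed here.

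Kidney RNA was measured on Affymetrix mouse arrays in 6 groups of 3 arrays, 18 in all: TIMP3-/- UUO, TIMP2-/- UUO, WT UUO, TIMP3-/- sham, TIMP2-/- sham and WT sham. UUO stands for unilateral ureteral obstruction, here a double ligation of the right ureter, and sham mice had the same surgery without the ligation. All mice were C57BL/6, and the whole kidney of the operated side was taken on day 3. TIMP2 and TIMP3 are tissue inhibitors of metalloproteinases, and the labels describe the knockouts by genotype only and give neither age nor sex. The labels call the samples biological replicates without naming animals, so p-values measure the spread between these samples. Arrays are named by group and replicate number.

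Obstruction raises pressure in the tubules, and injured tubule cells lose their differentiated transport program and switch on genes that are silent or low in the resting nephron. Some of these encode secreted or shed proteins that are read in urine as injury markers (KIM-1, the product of Havcr1, and NGAL, the product of Lcn2). Others encode adhesion molecules, a chaperone, a transcription factor of repairing epithelium, or the type I and type II keratins that pair into the intermediate filaments of simple epithelia.

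Promoter windows were available for 6 of the 10 genes, Havcr1, Lcn2, Cd44, Spp1, Krt8 and Krt18, from RefSeq on GRCm38.p6, each running from 250 bases before a transcript start to 50 after it. Vcam1, Clu, Krt19 and Sox9 had no window. The 4 windows below belong to Havcr1 and Lcn2, whose products are the urinary injury markers, and to Krt8 and Krt18, which encode partner keratins and lie on chromosome 15 with 0 protein-coding genes between them. Each is written 5′ to 3′ on the strand of its gene, and capitals mark matches to the motifs searched. The windows are chr11:46750918-46751217 on the + strand for Havcr1, chr2:32387690-32387989 on the − strand for Lcn2, chr15:102004293-102004592 on the − strand for Krt8 and chr15:102027966-102028265 on the + strand for Krt18.
Havcr1: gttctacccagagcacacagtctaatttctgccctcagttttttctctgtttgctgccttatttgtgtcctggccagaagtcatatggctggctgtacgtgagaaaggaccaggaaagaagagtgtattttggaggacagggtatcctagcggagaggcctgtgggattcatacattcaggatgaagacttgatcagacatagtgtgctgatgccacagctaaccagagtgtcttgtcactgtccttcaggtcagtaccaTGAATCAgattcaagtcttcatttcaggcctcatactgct
Lcn2: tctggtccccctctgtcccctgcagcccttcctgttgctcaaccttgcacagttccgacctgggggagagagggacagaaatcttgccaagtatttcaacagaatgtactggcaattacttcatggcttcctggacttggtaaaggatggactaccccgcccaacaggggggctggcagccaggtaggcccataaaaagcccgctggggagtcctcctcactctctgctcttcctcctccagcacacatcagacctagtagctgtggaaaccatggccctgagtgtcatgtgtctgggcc
Krt8: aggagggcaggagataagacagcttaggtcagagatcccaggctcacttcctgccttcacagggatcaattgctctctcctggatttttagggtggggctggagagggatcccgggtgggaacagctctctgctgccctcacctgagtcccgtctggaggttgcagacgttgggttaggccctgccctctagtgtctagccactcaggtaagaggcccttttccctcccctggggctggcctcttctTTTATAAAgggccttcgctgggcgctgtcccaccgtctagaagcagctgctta
Krt18: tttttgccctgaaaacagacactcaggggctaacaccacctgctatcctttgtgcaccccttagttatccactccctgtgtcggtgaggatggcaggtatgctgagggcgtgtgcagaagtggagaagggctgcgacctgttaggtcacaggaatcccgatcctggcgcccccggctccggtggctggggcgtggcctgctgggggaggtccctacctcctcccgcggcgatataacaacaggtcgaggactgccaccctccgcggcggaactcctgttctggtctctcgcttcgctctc

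The motifs searched on both strands were AP-1 (TGANTCA), STAT (TTCNNNGAA), the TATA box (TATAAA) and NF-kappaB. They were found in 7.81%, 8.3%, 13.62% and 4.51% of all 32851 promoter windows. The Havcr1 window holds 1 match to the AP-1 pattern, TGAATCA, at base 261 of its 300 bases, which lies after the transcript start. Its middle base is A, where the pattern searched allows any base (N). The other 2 windows of Havcr1 hold no match to any of the 4. The Krt8 window holds TATAAA at base 250, across the transcript start, and, overlapping it, TTTATA at base 248, its match on the other strand. A window of Spp1, not printed here, holds TATAAA at base 40, and the other Spp1 window holds no match. No match was found in the windows of Lcn2, Cd44 and Krt18. These letters describe the windows and say nothing of which factors bind.

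The labels were checked against the deleted genes. Timp3 read 35.1 to 60.8 in the TIMP3-/- kidneys, against 3171 to 9040 in the other groups, and Timp2 read 742.2 to 897.1 in TIMP2-/- UUO kidneys, against 3521 to 4689 in WT UUO kidneys, and 570.8 to 680.9 in TIMP2-/- sham kidneys, against 970.6 to 1475 in WT sham kidneys. Proximal tubule markers summed to 41170 to 96630 in UUO kidneys, against 142200 to 153100 in sham kidneys, and 10 of 10 were lower in TIMP3-/-, 9 of 10 in TIMP2-/- and 10 of 10 in WT. Macrophage markers, 8 of 8 higher in each genotype, summed to 34260 to 69320 in UUO kidneys, against 4940 to 9664 in sham kidneys. In whole kidney RNA, fewer cells of a type and less RNA per cell cannot be told apart. Hepatocyte markers summed to 83810 on WT UUO 2 and to at most 21590 on every other array. Each result below was also fitted without 3 arrays, this one, WT sham 3 and TIMP3-/- UUO 2, which were chosen with earlier results of these data known, and none of the calls of the 9 genes changed.

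**Figure D1:**
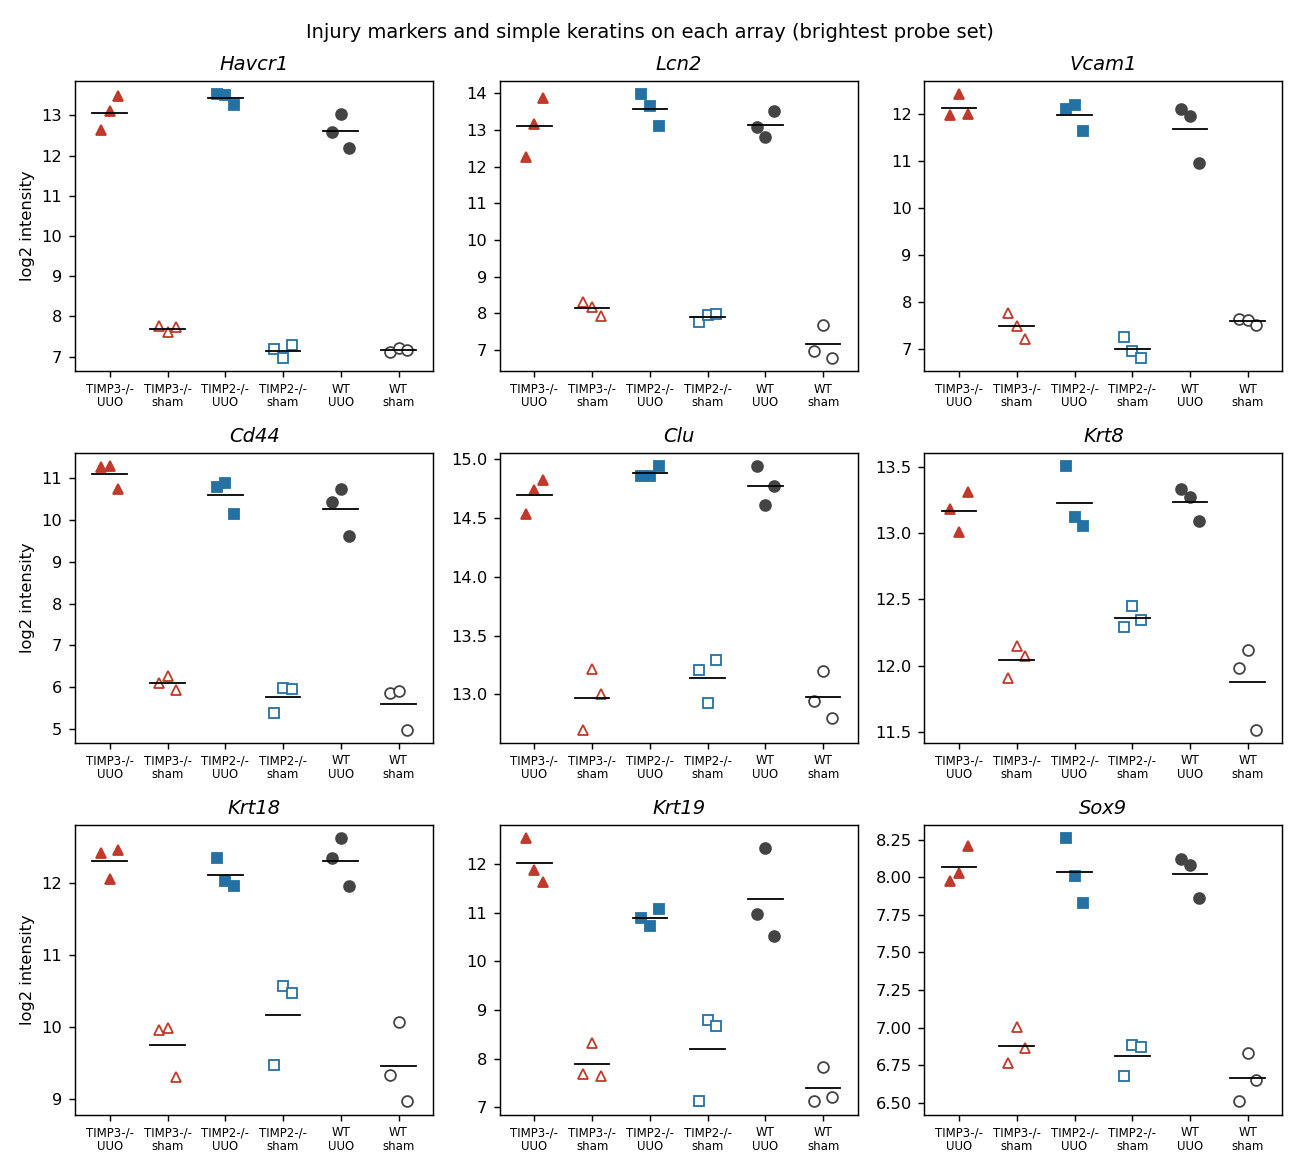
Log2 intensity of the brightest probe set of each of the 9 genes (vertical axes, each with its own range) on all 18 arrays, by group (filled, UUO; open, sham; short lines, group means; n = 3 arrays a group). For every gene the UUO arrays of a genotype lie above its sham arrays.

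All 9 genes, and all 18 of their probe sets, were higher after obstruction in each of the 3 genotypes (limma, adjusted p under 0.05). Over all 22626 probe sets, 25% were higher with UUO in TIMP3-/-, 14.1% in TIMP2-/- and 14.7% in WT. The median change of the 9 genes on the log2 scale was 4.13 in TIMP3-/- (range 1.13 to 5.38), 2.71 in TIMP2-/- (0.87 to 6.29) and 3.89 in WT (1.36 to 5.99), beside medians of -0.18, -0.12 and -0.12 over all probe sets. Every UUO array was above every sham array of its genotype for 18 of 18 probe sets, which held for 23%, 20.9% and 19.2% of all probe sets in TIMP3-/-, TIMP2-/- and WT. The members were picked as known injury genes with earlier results of these data in view, so these counts describe them.

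Among the 9 genes, by brightest probe set, Havcr1 and Lcn2 had the largest changes in TIMP2-/- and WT. In TIMP3-/- Havcr1 was followed by Cd44 (5.004, SE 0.31) and Lcn2 (4.97, SE 0.34), which lay within their standard errors of each other. The dimmer probe set of Cd44 gave 3.38 there. Havcr1 encodes KIM-1, a membrane receptor with which injured proximal tubule cells take up dying cells and whose ectodomain is shed into urine. Its intensity was 6327, 8836 and 11423 in TIMP3-/- UUO kidneys, 11806, 11723 and 9817 in TIMP2-/- UUO kidneys and 6175, 8439 and 4698 in WT UUO kidneys. In sham kidneys it was 216.1, 193.9 and 211.9 in TIMP3-/-, 145, 125.3 and 155.1 in TIMP2-/- and 139.2, 149.6 and 142.9 in WT. The lowest obstructed kidney thus read far above the highest sham kidney. The TIMP2-/- and WT sham values overlapped and lay below the array medians (201 to 247), and the TIMP3-/- sham values, near those medians, lay above both. The log2 change with UUO was 5.38 ± 0.21 in TIMP3-/- (SE, n = 3 arrays a group; limma, adjusted p = 5.14e-10), 6.29 ± 0.21 in TIMP2-/- (adjusted p = 4.87e-11) and 5.44 ± 0.21 in WT (adjusted p = 4.3e-10), or 41.6-fold, 78.4-fold and 43.5-fold.

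Lcn2 encodes NGAL (lipocalin 2), a small secreted protein that binds iron-carrying siderophores and is also made by neutrophils and macrophages. It read 4910, 9255 and 15144 in TIMP3-/- UUO kidneys, 16152, 13002 and 8829 in TIMP2-/- UUO kidneys and 8735, 7198 and 11825 in WT UUO kidneys. It read 317.5, 288.7 and 244.7 in TIMP3-/- sham kidneys, 217.7, 250 and 253.4 in TIMP2-/- sham kidneys and 126.8, 205.8 and 110.6 in WT sham kidneys. The widest spread among obstructed kidneys was in TIMP3-/-, and the lowest sham values were all WT. Lcn2 rose on the log2 scale by 4.97 ± 0.34 in TIMP3-/- (limma, adjusted p = 1.31e-07), 5.68 ± 0.34 in TIMP2-/- (adjusted p = 5.32e-08) and 5.99 ± 0.34 in WT (adjusted p = 2.84e-08). Neutrophil markers summed to 3908 on TIMP3-/- UUO 1, where Lcn2 was lowest among the obstructed kidneys, and to 4441 on WT UUO 2, where it was lowest among WT UUO kidneys. Their sums were at most 1148 on the other arrays. The part of neutrophils and macrophages in the change of Lcn2 was not tested.

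Of the cell surface adhesion molecules, Vcam1 encodes the vascular cell adhesion molecule, which binds integrins of leukocytes and is displayed by inflamed endothelium and by injured tubule cells. Its brightest probe set read 4060, 5476 and 4082 in TIMP3-/- UUO kidneys, 4430, 4669 and 3180 in TIMP2-/- UUO kidneys and 4424, 3957 and 1984 in WT UUO kidneys. The sham values were 217.6, 180.7 and 149.8 in TIMP3-/-, 153.4, 124.2 and 113.1 in TIMP2-/- and 200.2, 197.5 and 184 in WT. WT UUO 3 was the lowest of the 9 obstructed kidneys. Vcam1 rose on the log2 scale by 4.64 ± 0.25 in TIMP3-/- (limma, adjusted p = 3.23e-08), 4.97 ± 0.25 in TIMP2-/- (adjusted p = 2.12e-08) and 4.07 ± 0.25 in WT (adjusted p = 8.32e-08). The other 2 probe sets of Vcam1 also rose, by smaller amounts, 3.11 and 3.74 in TIMP3-/-, 2.90 and 3.82 in TIMP2-/- and 2.27 and 3.26 in WT. Of 6 endothelial markers, 2 were higher in TIMP3-/-, 0 in TIMP2-/- and 2 in WT, beside 25%, 14.1% and 14.7% of all probe sets. In TIMP2-/- 1 was lower, where 7922 of 22626 probe sets passed in either direction, 3184 of them higher. The marker sums overlapped between UUO kidneys (3498 to 6340) and sham kidneys (3988 to 4724). The part of endothelium in the change of Vcam1 was not tested.

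Cd44 encodes the receptor for hyaluronan, the matrix sugar polymer, and its protein also binds osteopontin. The brightest probe set read 2489, 2515 and 1716 in TIMP3-/- UUO kidneys, 1780, 1896 and 1131 in TIMP2-/- UUO kidneys and 1389, 1710 and 784.9 in WT UUO kidneys. In sham kidneys it read 68.9, 76.9 and 61.4 in TIMP3-/-, 41.4, 63.1 and 61.6 in TIMP2-/- and 58, 60.1 and 31.5 in WT. These sham values lie about the 25th percentile of the arrays (56.8 to 64.2), where background weighs on the value, so the size of the change is less certain than its direction. It was 5.004 ± 0.31 on the log2 scale in TIMP3-/- (limma, adjusted p = 6.02e-08), 4.84 ± 0.31 in TIMP2-/- (adjusted p = 8.99e-08) and 4.68 ± 0.31 in WT (adjusted p = 1.23e-07). The dimmer probe set gave 3.38, 2.90 and 2.90. Macrophages and fibroblasts carry CD44 as well, and the share of macrophage and fibroblast transcripts in its change was not tested.

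Clu encodes clusterin, a secreted chaperone that binds misfolded proteins and is made by stressed tubules. Its brightest probe set read 23677, 27266 and 28871 in TIMP3-/- UUO kidneys, 29560, 29536 and 31310 in TIMP2-/- UUO kidneys and 31388, 24999 and 27843 in WT UUO kidneys. In sham kidneys it read 6663, 9523 and 8216 in TIMP3-/-, 9441, 7806 and 10031 in TIMP2-/- and 7882, 9406 and 7135 in WT. Clusterin message was thus bright before obstruction, and after it only 6 to 43 probe sets of an array were brighter, against 400 to 741 in sham kidneys. The log2 change was 1.72 ± 0.15 in TIMP3-/- (limma, adjusted p = 1.22e-06), 1.74 ± 0.15 in TIMP2-/- (adjusted p = 1.95e-06) and 1.79 ± 0.15 in WT (adjusted p = 1.05e-06). The 4 probe sets of Clu gave changes from 1.66 to 2.07 over the 3 genotypes. The array maxima were 33412 to 41978, so the obstructed values stood near the upper end of the scale, where arrays understate changes.

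Sox9 encodes a transcription factor that marks repairing tubule epithelium. Its brightest probe set read 251, 261 and 295.9 in TIMP3-/- UUO kidneys, 307, 256.9 and 227.5 in TIMP2-/- UUO kidneys and 278.9, 270.2 and 233.2 in WT UUO kidneys. It read 108.7, 128.4 and 116.7 in TIMP3-/- sham kidneys, 102.5, 118.1 and 116.8 in TIMP2-/- sham kidneys and 91, 114.1 and 100.5 in WT sham kidneys. The groups did not overlap, and the 3 obstructed groups covered nearly the same range. Sox9 rose by 1.19 ± 0.13 in TIMP3-/- (limma, adjusted p = 7.45e-06), 1.22 ± 0.13 in TIMP2-/- (adjusted p = 1.52e-05) and 1.36 ± 0.13 in WT (adjusted p = 3.76e-06). The second, dimmer probe set of Sox9 changed more, by 2.12, 2.14 and 1.94.

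**Figure D2:**
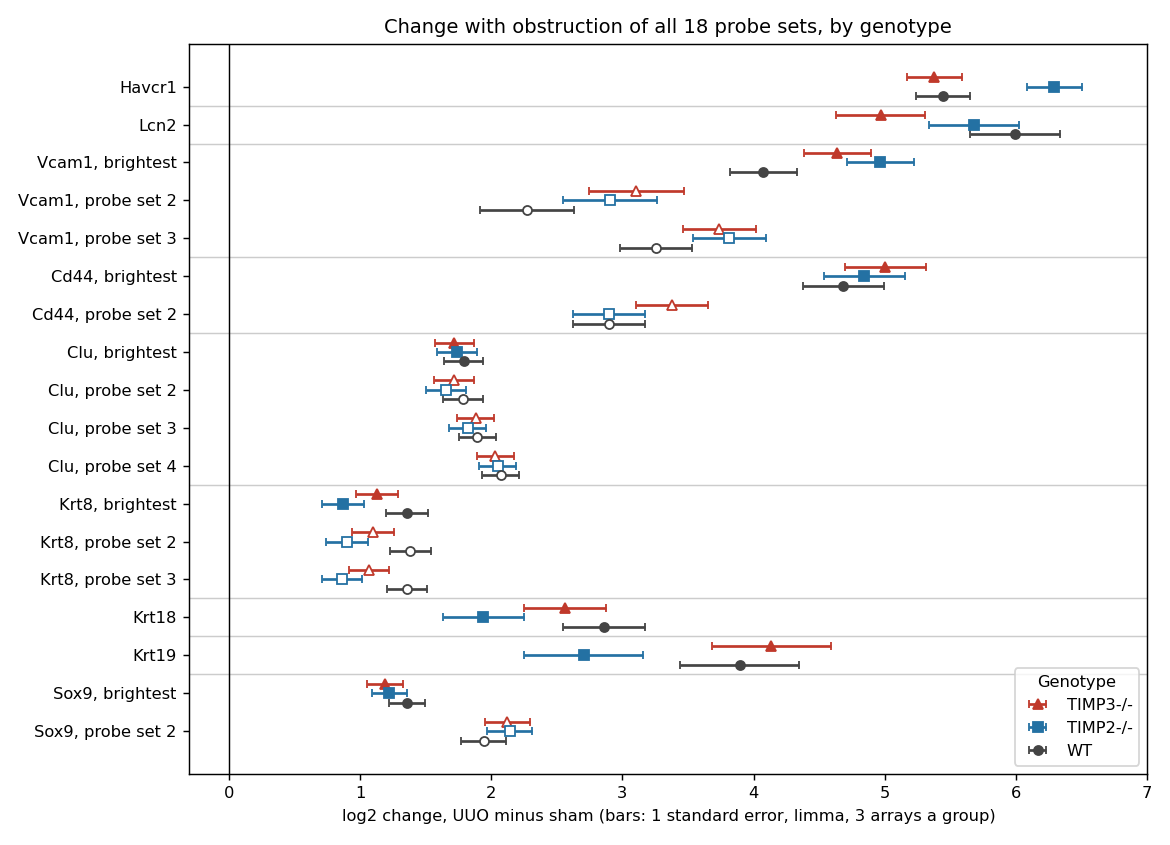
Log2 change with UUO (horizontal axis; UUO minus sham) of all 18 probe sets in the 3 genotypes, with bars of 1 standard error from limma (n = 3 arrays a group). All 54 changes lie above 0, and probe sets of Vcam1, Cd44 and Sox9 differ in size within a gene, while those of Clu and Krt8 lie close together.

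Simple keratins rose by unequal amounts, as read by their brightest probe sets. Krt8, the type II keratin of simple epithelia, read 9313, 8267 and 10175 in TIMP3-/- UUO kidneys, 11646, 8918 and 8520 in TIMP2-/- UUO kidneys and 10312, 9916 and 8738 in WT UUO kidneys. It read 3833, 4547 and 4316 in TIMP3-/- sham kidneys, 5007, 5609 and 5193 in TIMP2-/- sham kidneys and 4042, 4455 and 2931 in WT sham kidneys. The obstructed groups covered the same range, and the TIMP2-/- sham kidneys were the highest of the sham kidneys. The log2 change was 1.13 ± 0.16 in TIMP3-/- (limma, adjusted p = 4.63e-05), 0.87 ± 0.16 in TIMP2-/- (adjusted p = 0.00121) and 1.36 ± 0.16 in WT (adjusted p = 1.85e-05). The other 2 probe sets of Krt8 gave 1.07 to 1.10, 0.86 to 0.90 and 1.36 to 1.38.

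Krt18, the type I partner with which keratin 8 assembles, read 5459, 4247 and 5631 in TIMP3-/- UUO kidneys, 5180, 4180 and 3976 in TIMP2-/- UUO kidneys and 5220, 6316 and 3961 in WT UUO kidneys. It read 990.7, 1016 and 630 in TIMP3-/- sham kidneys, 709.3, 1520 and 1412 in TIMP2-/- sham kidneys and 641.9, 1068 and 499.4 in WT sham kidneys. On the log2 scale sham kidneys varied more than obstructed ones within each genotype, while in intensity they varied less. Krt18 rose by 2.56 ± 0.31 in TIMP3-/- (limma, adjusted p = 1.28e-05), 1.94 ± 0.31 in TIMP2-/- (adjusted p = 0.000414) and 2.86 ± 0.31 in WT (adjusted p = 9.25e-06).

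Krt19, a type I keratin of collecting duct and urothelium that also appears in injured tubules, read 5959, 3753 and 3179 in TIMP3-/- UUO kidneys, 1905, 1701 and 2152 in TIMP2-/- UUO kidneys and 2021, 5154 and 1469 in WT UUO kidneys. In sham kidneys it read 206.6, 318.1 and 199.7 in TIMP3-/-, 139, 441 and 409.6 in TIMP2-/- and 139, 227.5 and 147.7 in WT. The 3 TIMP3-/- UUO kidneys and WT UUO 2 were the highest, and the other 5 obstructed kidneys lay between 1469 and 2152. The log2 change was 4.13 ± 0.45 in TIMP3-/- (limma, adjusted p = 6.1e-06), 2.71 ± 0.45 in TIMP2-/- (adjusted p = 0.000615) and 3.89 ± 0.45 in WT (adjusted p = 1.78e-05). Without WT UUO 2, WT sham 3 and TIMP3-/- UUO 2, the change of Krt19 was 4.21 in TIMP3-/-, 2.71 in TIMP2-/- and 3.28 in WT.

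Within an array, the log2 ratio of Krt18 to Krt8 was -0.96 to -0.77 in TIMP3-/- UUO, -1.17 to -1.09 in TIMP2-/- UUO and -1.14 to -0.65 in WT UUO kidneys, against -2.78 to -1.95, -2.82 to -1.88 and -2.66 to -2.06 in the sham kidneys of the same genotypes. The ratio of Krt19 to Krt18 was -0.82 to 0.13 in TIMP3-/- UUO, -1.44 to -0.89 in TIMP2-/- UUO and -1.43 to -0.29 in WT UUO kidneys, against -2.26 to -1.66, -2.35 to -1.78 and -2.23 to -1.76 in sham kidneys. In every genotype the obstructed kidneys lay above the sham kidneys in both ratios. Probe sets differ in how they respond, so the level of a ratio is not read. The size of its shift depends on the probe sets too. Those of Vcam1 changed by 4.07, 2.27 and 3.26 in WT, and Krt18 and Krt19 have 1 probe set each. Whether Krt18 and Krt19 messages rose more than that of Krt8 is thus not settled. These ratios were chosen after the values of the keratins were seen.

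**Figure D3:**
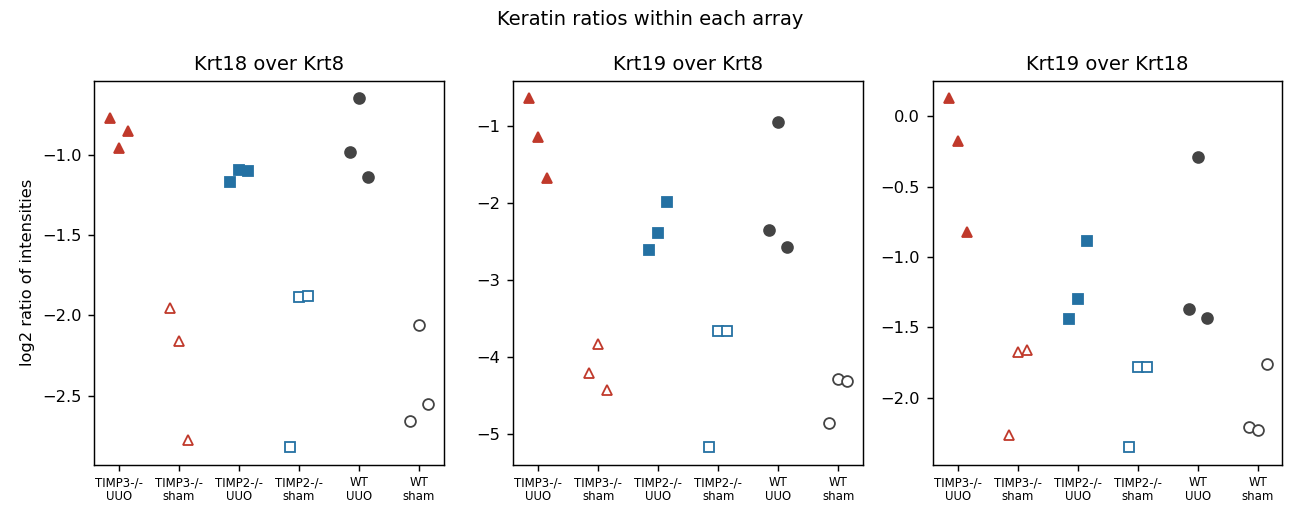
Log2 ratio of the intensities of Krt18 to Krt8, Krt19 to Krt8 and Krt19 to Krt18 (vertical axes) on each of the 18 arrays, by group (filled, UUO; open, sham). The ratio of Krt18 to Krt8 lies at -1.17 or above on all UUO arrays and at -1.88 or below on all sham arrays.

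The pair of arrays with the most Krt19, TIMP3-/- UUO 1 and WT UUO 2, also had the largest sums of urothelium, neutrophil, macrophage and endothelium markers. The 6 measured of 7 urothelium markers, which include Krt5 and Krt15, summed to 3513, 2110 and 2005 in TIMP3-/- UUO kidneys, 1176, 986.6 and 2126 in TIMP2-/- UUO kidneys and 1454, 3190 and 1459 in WT UUO kidneys, with sums of 866.1 to 1298 in sham kidneys. TIMP2-/- UUO 3 thus had a sum as large as TIMP3-/- UUO 2, with less Krt19. Of the 6, 4 were higher with UUO in TIMP3-/-, 1 in TIMP2-/- and 2 in WT, beside 25%, 14.1% and 14.7% of all probe sets. The uroplakins Upk1a and Upk2 did not pass the test in any genotype (log2 changes from -0.30 to 0.15). The 4 higher in TIMP3-/- were the other measured markers, Krt5, Krt15 and genes among Upk1b, Upk3a and Trp63, so they include another uroplakin. The fibroblast markers summed to 93360 on TIMP3-/- UUO 1, 79610 on TIMP3-/- UUO 2 and 72150 on WT UUO 2, against 31230 to 44050 on the other UUO arrays. The part of urothelium and fibroblasts in the change of Krt19 was not tested.

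**Figure D4:**
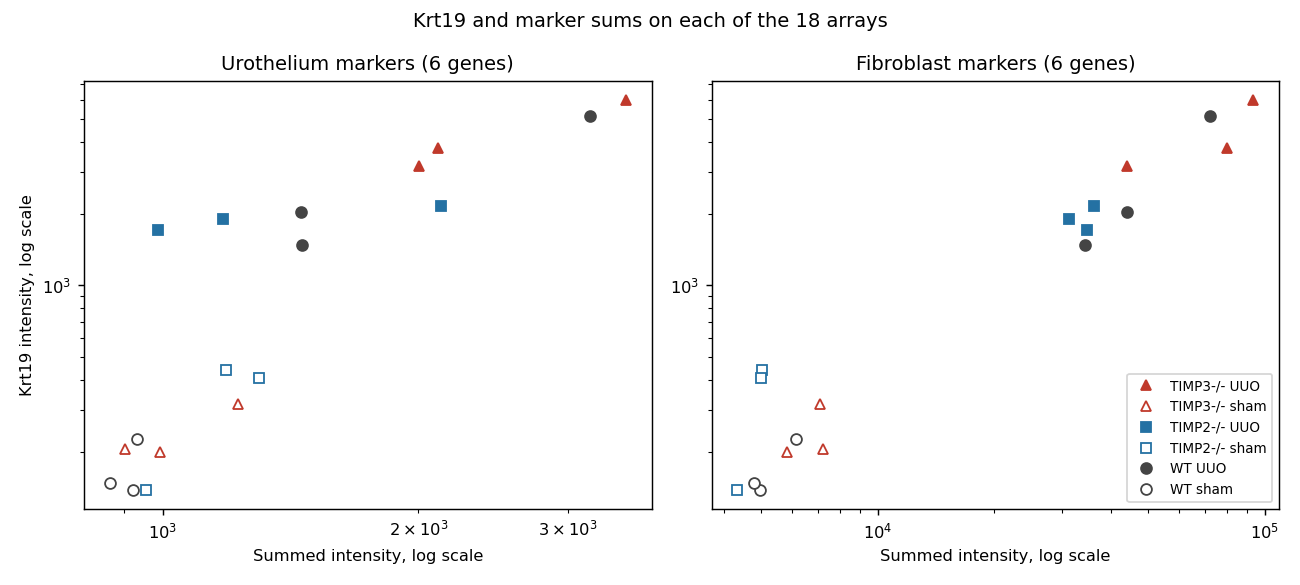
Krt19 intensity (vertical axes, log scale) against the summed intensity of 6 urothelium and 6 fibroblast markers (horizontal axes, log scale) on each of the 18 arrays, by group. TIMP3-/- UUO 1 and WT UUO 2, with Krt19 at 5959 and 5154, have the largest urothelium sums, 3513 and 3190.

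None of the 9 genes passed the test of a genotype difference after obstruction (limma, adjusted p under 0.05), while 0.707% of all probe sets did so between TIMP3-/- and WT, 0.0486% between TIMP2-/- and WT and 7.06% between TIMP3-/- and TIMP2-/-. At an unadjusted p under 0.05 there were 2, 1 and 1 of the 9 genes, beside 4647, 770 and 6838 of the 22626 probe sets. The gene with the lowest p was Havcr1, higher in TIMP2-/- UUO than in WT UUO kidneys by 0.82 ± 0.21 on the log2 scale (95% interval 0.38 to 1.26; limma, adjusted p = 0.595), with the 3 TIMP2-/- values above the 3 WT values. Between TIMP3-/- UUO and WT UUO kidneys it differed by 0.46 ± 0.21 (adjusted p = 0.224), and without WT UUO 2 by 0.68 (adjusted p = 0.048), the only call that leaving out an array changed. By its brightest probe set, Cd44 was 0.84 ± 0.31 higher in TIMP3-/- UUO than in WT UUO kidneys (interval 0.19 to 1.498; limma, adjusted p = 0.163), with groups that did not overlap. The dimmer probe set of Cd44 gave 0.53 (interval -0.05 to 1.12), with groups that overlapped. Krt19 was 1.12 ± 0.45 higher in TIMP3-/- UUO than in TIMP2-/- UUO kidneys (interval 0.15 to 2.08, limma, adjusted p = 0.12), without overlap. Separation of 3 against 3 arrays cannot reach p below 0.1 by exact permutation. Its share over all probe sets was not counted between genotypes, so it adds no support to these differences. For the brightest probe sets of Krt8, Clu and Sox9, the 95% intervals of the differences from WT after obstruction lay between -0.40 and 0.43 in both knockouts. The dimmer probe set of Sox9 had wider intervals, -0.28 to 0.46 for TIMP3-/- and -0.12 to 0.61 for TIMP2-/-.

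In sham kidneys none of the 9 genes passed the test between genotypes either (limma, adjusted p under 0.05), beside 0.0442% of all probe sets between TIMP3-/- and WT, 0.0221% between TIMP2-/- and WT and 0.0751% between TIMP3-/- and TIMP2-/-. At an unadjusted p under 0.05 there were 2, 4 and 1 of the 9 genes, beside 2393, 5848 and 885 of the 22626 probe sets. Lcn2 was 0.99 ± 0.34 higher in TIMP3-/- sham than in WT sham kidneys (limma, adjusted p = 0.472) and 0.75 ± 0.34 higher in TIMP2-/- sham than in WT sham kidneys (adjusted p = 0.186). In both comparisons each knockout value was above each WT value. As after obstruction, the share of all probe sets with such a separation was not counted. Havcr1 was 0.53 ± 0.21 higher in TIMP3-/- sham than in WT sham kidneys (limma, adjusted p = 0.472), without overlap. Krt8 was 0.49 ± 0.16 higher in TIMP2-/- sham than in WT sham kidneys (limma, adjusted p = 0.144), Krt18 was 0.72 ± 0.31 higher (adjusted p = 0.174) and Vcam1 was lower, with a log2 difference of -0.59 ± 0.25 (adjusted p = 0.174). The dimmer probe sets of Vcam1 gave -0.36 and -0.22, with groups that overlapped.

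**Figure D5:**
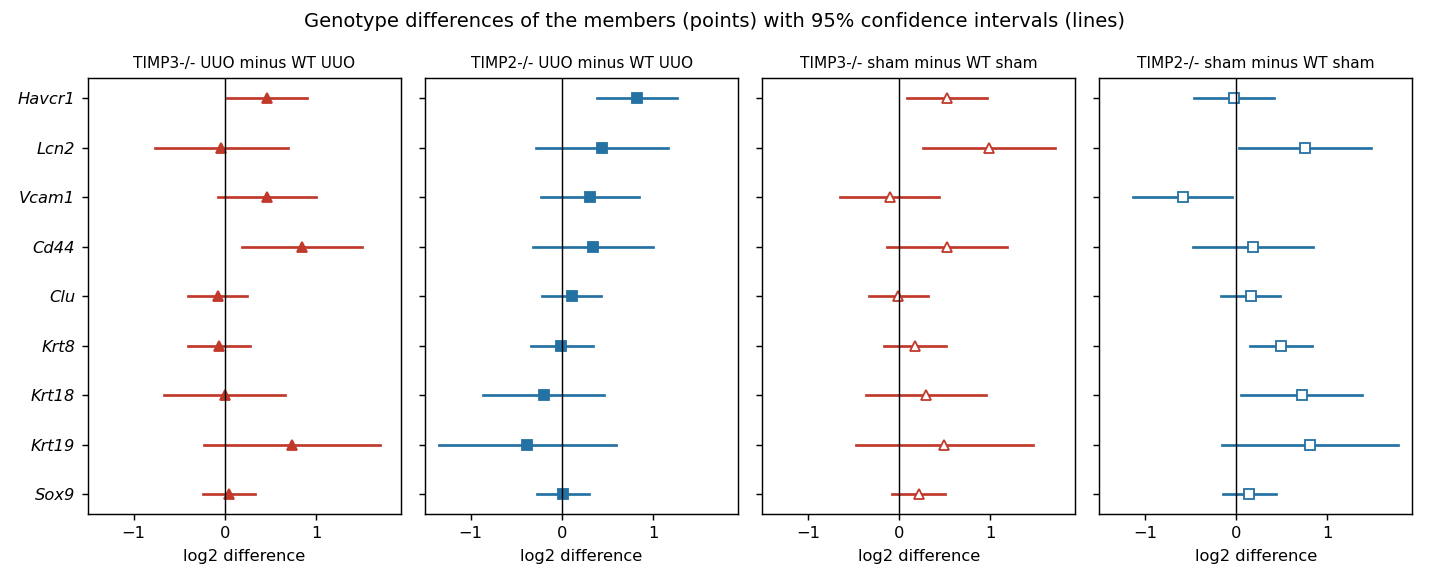
Log2 differences between knockout and WT kidneys (horizontal axes) of the 9 genes after UUO and after sham surgery, as points with 95% confidence intervals from limma (n = 3 arrays a group). Intervals that leave out 0 include Havcr1 and Cd44 for TIMP3-/- UUO, Havcr1 for TIMP2-/- UUO and Lcn2 in both sham comparisons with WT, and none of these differences passed the adjusted test.

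Whether the response to obstruction itself differed between genotypes was tested as an interaction. None of the 9 genes passed in limma (adjusted p under 0.05), and 0% of all probe sets did so in each of the 3 comparisons. At an unadjusted p under 0.05 there were 0 genes for TIMP3-/- minus WT, 3 for TIMP2-/- minus WT and 2 for TIMP3-/- minus TIMP2-/-, beside 5852, 2015 and 2266 probe sets. In TIMP2-/- minus WT the change of Havcr1 was larger by 0.85 ± 0.29 (limma, adjusted p = 0.551) and that of Vcam1 by 0.89 ± 0.36 (adjusted p = 0.551). The dimmer probe sets of Vcam1 gave 0.63 and 0.56, with 95% intervals that include 0. The keratins differed in the other direction, Krt8 by -0.49 ± 0.23 (adjusted p = 0.551), Krt18 by -0.92 ± 0.44 (adjusted p = 0.551) and Krt19 by -1.19 ± 0.64 (adjusted p = 0.552). Without the 3 arrays these differences were -0.30 for Krt8, -0.52 for Krt18 and -0.57 for Krt19. For TIMP3-/- minus WT the widest difference was that of Lcn2, -1.02 ± 0.48 (limma, adjusted p = 0.194). For TIMP3-/- minus TIMP2-/- the change of Havcr1 differed by -0.915 ± 0.29 (limma, adjusted p = 0.362) and that of Krt19 by 1.43. These comparisons share arrays, and each is given with its own values only.

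The members were also compared over the 18 arrays. After each gene's mean was set to 0, likeness was the root mean square difference on the log2 scale, computed among members and to 7206 genes of the brighter part of the array. All arrays share the step between sham and UUO, so likeness mostly reads its size and is given as a description. Among members the closest pairs were Krt8 with Sox9 (0.19) and Clu with Sox9 (0.31), followed by Clu with Krt8 (0.37), Vcam1 with Cd44 (0.41) and Havcr1 with Lcn2 (0.45). Krt8 and Havcr1 were the farthest apart (2.33). Each gene stood by its brightest probe set. The dimmer probe set of Sox9 changed more with UUO, by 2.12 in TIMP3-/-, 2.14 in TIMP2-/- and 1.94 in WT. The pairs of Sox9, and the genes nearest to it, may thus depend on the probe set used.

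Outside the members, Sox9 lay nearest to Cd9, a tetraspanin (0.09), and to Tes (0.13), and Krt8 nearest to Clic1 (0.12) and Trim47 (0.13). Krt19 lay nearest to Sprr1a, a small proline-rich protein of cornified epithelium (0.17), and to Ccdc80 (0.36). Sprr1a read 7184, 5069 and 4986 in TIMP3-/- UUO kidneys, 2794, 2368 and 3330 in TIMP2-/- UUO kidneys and 3133, 6838 and 2254 in WT UUO kidneys, so the same 4 arrays were highest as for Krt19. Krt18 lay nearest to Capg, an actin-capping protein (0.19), and to Anxa2 (0.27), Clu to St6gal1 (0.18) and Col18a1 (0.19), and Vcam1 to Col3a1 (0.43) and Cxcl1 (0.44). Cd44 lay nearest to Aldh1a2 (0.45) and Ubd (0.45), Lcn2 to Serpina10 (0.50) and Aoc1 (0.77), and Havcr1 to Serpina10 (0.57) and Timp1 (0.79), so the genes with the largest steps had the least close neighbours.

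A list of 24 other genes reported in injured tubules had 19 measured. With UUO 15 were higher in TIMP3-/-, 17 in TIMP2-/- and 15 in WT, none was lower, and the list's median log2 change was 2.17, 2.25 and 2.20. Without the 3 arrays the counts were 15, 17 and 13. The chemokine Cxcl1 changed by 4.57 in TIMP3-/-, 3.87 in TIMP2-/- and 4.33 in WT, Cp (ceruloplasmin, a copper-carrying ferroxidase) by 3.44, 3.88 and 2.97, and the calcium-binding S100a6 by 2.93, 2.25 and 3.47. Fgb, the fibrinogen beta chain, rose in TIMP2-/- (3.21, limma, adjusted p = 0.00538) and WT (3.93, adjusted p = 0.00116), with 1.59 in TIMP3-/- (adjusted p = 0.0756). Its WT UUO values were 545.2, 10054 and 745.8, the middle one from the array with the hepatocyte transcripts, and without WT UUO 2 its change was 2.60 in WT and 1.59 in TIMP3-/- (adjusted p = 0.00103).

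Of 21 other keratin and desmosome genes, all measured, 9 were higher and 5 lower with UUO in TIMP3-/-, 7 and 3 in TIMP2-/- and 7 and 1 in WT, and the medians were 0.02, -0.002 and 0.21. Without the 3 arrays the counts were 8 and 3, 8 and 3, and 4 and 0. Krt20, a type I keratin of umbrella cells of the urothelium, read 643, 875.4 and 514.9 in TIMP3-/- UUO kidneys, 659.6, 474.7 and 595.9 in TIMP2-/- UUO kidneys and 357.9, 647.4 and 268.2 in WT UUO kidneys, against 26.7 to 36 in all sham kidneys. Its log2 change was 4.27 in TIMP3-/-, 4.15 in TIMP2-/- and 3.72 in WT, from sham values below the 25th percentile of the arrays. Krt14, a basal cell keratin, rose in TIMP3-/- (3.51, limma, adjusted p = 0.000145) and WT (2.48, adjusted p = 0.00423), with 1.33 in TIMP2-/- (adjusted p = 0.079), and without WT UUO 2, WT sham 3 and TIMP3-/- UUO 2 the WT value was 1.54 (adjusted p = 0.0723), while the TIMP2-/- value of 1.33 then passed (adjusted p = 0.0312). Krt15 rose by 1.58, 1.25 and 2.30, and Plec (plectin, which links keratin filaments to junctions) by 1.18, 0.65 and 1.38.

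Of 20 genes that encode ligands or receptors of the members' products, 18 were measured, with 6 higher and 6 lower in TIMP3-/-, 5 and 4 in TIMP2-/- and 4 and 3 in WT, and medians of 0.07, -0.01 and 0.06. Without the 3 arrays the counts were 6 and 6, 5 and 5, and 4 and 1. Beside this list and that of the keratins, 14145 of all 22626 probe sets passed in TIMP3-/-, 7922 in TIMP2-/- and 6971 in WT. Of these, 5663, 3184 and 3328 were higher and the rest lower. Lrp2 (megalin, the endocytic receptor of proximal tubule that takes up NGAL) fell, with log2 changes of -2.46 in TIMP3-/-, -1.18 in TIMP2-/- and -1.90 in WT. It also serves here as a proximal tubule marker, and it was lower in TIMP3-/- UUO than in TIMP2-/- UUO kidneys by a log2 difference of -1.13 (limma, adjusted p = 0.0217). Of the 10 proximal tubule markers, 7 were lower in this comparison, Lrp2 included, with a median log2 difference of -1.22 over the 10. Over all probe sets 7.06% passed it in either direction. Msn (moesin, which ties CD44 to actin) rose by 1.55, 1.32 and 1.23, and Itgb5, an integrin subunit that pairs with Itgav to bind osteopontin, by 0.74, 0.50 and 1.05. Vldlr, a lipoprotein receptor that binds clusterin, fell in WT (-0.85, adjusted p = 0.00739 in limma), with -0.48 in TIMP3-/- and -0.03 in TIMP2-/-, and without the 3 arrays the WT value was -0.52 (adjusted p = 0.148), while that of TIMP3-/-, -0.53, passed (adjusted p = 0.0496).

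Itga9, an integrin subunit whose partners include VCAM1 and osteopontin, was the list's other gene that differed between genotypes after obstruction. It read 251.3, 223.8 and 308.6 in TIMP3-/- UUO kidneys, 170.7, 172.4 and 158.5 in TIMP2-/- UUO kidneys and 171.2, 189.7 and 167.8 in WT UUO kidneys. All TIMP3-/- UUO values were above those of the other obstructed kidneys. In sham kidneys it read 145.1 to 160.8 in TIMP3-/-, 126 to 137.7 in TIMP2-/- and 107.1 to 124.6 in WT, and here too the TIMP3-/- values were above the others, with a log2 difference of 0.39 ± 0.12 from WT sham (limma, adjusted p = 0.472). After obstruction the log2 difference was 0.56 ± 0.12 from WT UUO (limma, adjusted p = 0.0437) and 0.63 ± 0.12 from TIMP2-/- UUO kidneys (adjusted p = 0.0126). Itga9 and the comparison of Lrp2 between knockouts were singled out after their values were seen.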

How the data were processed

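Total RNA (integrity number above 7, per the labels) of 18 operated-side kidneys was hybridised to Affymetrix mouse arrays. The deposited values are linear intensities, 1 per probe set and array. Per the submitters' processing notes RMA was used, with no version stated there. RMA usually ends in log2 values, and how these became linear is not stated in the labels. Its quantile step hides a shift of all transcripts in 1 direction. The number of arrays, 3 a group, limits the precision, and the labels name no batch. Of 22690 probe sets, 64 controls were left out; the annotation gave 1 symbol for 20380 of the rest, several for 691 and none for 1555. Deposited intensities were taken to log2 with no pseudocount.

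A limma 3.58.1 model (R 4.3.3) of 6 group means was fitted to 22626 probe sets (12 residual and 3.28 prior degrees of freedom), with 12 comparisons: UUO against sham in each genotype, genotypes after UUO and after sham, and differences of the UUO response. Tests were two-sided, with Benjamini-Hochberg adjustment within a comparison and a threshold of 0.05; the fit was tested on simulated data. The brightest probe set stood for a gene. Exact permutation of 3 against 3 arrays cannot go below p = 0.1 and was not used. Arrays of a group correlated at 0.9545 to 0.9966, and 0 pairs were identical.

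Named genes were the members in every comparison, the 2 most alike genes of each, and from each list the 4 largest changes with UUO in WT among genes that passed. Members, lists and tests were chosen with earlier results of these data known. Same-numbered samples deviated together in all 3 pairs (correlations over 0.1) only for UUO against sham in TIMP2-/- (0.361, 0.284 and 0.564) and TIMP2-/- UUO against WT UUO (0.18, 0.299 and 0.479); 14 of all 27 correlations, which ran from -0.579 to 0.612, were over 0.1. Alternatives were the replicate number as a block, each array or 3 arrays (WT UUO 2, WT sham 3 and TIMP3-/- UUO 2) left out, dim or suffixed probe sets left out, quantile normalization again, a pseudocount of 50, other prior settings, other summaries of probe sets, and the compared groups alone.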

Additional observations from a re-analysis of the deposited data

How the results depend on the processing

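Every comparison was refitted under 10 other settings and without each array in turn. Of 1842 refitted changes of single genes, 1841 kept their direction and their side of the threshold or were uncalled before and after, and 1 passed the threshold newly: Havcr1 between TIMP3-/- UUO and WT UUO kidneys without WT UUO replicate 2 (0.68 on the log2 scale, limma, adjusted p = 0.048). Without single arrays the count of members that differed between TIMP3-/- UUO and WT UUO kidneys therefore ran from 0 to 1, and the count with UUO was 9 in each genotype in every such fit. With probe sets of suffixed names left out, 5 genes kept a value, and 5 of these 5 rose with UUO in TIMP3-/-, in TIMP2-/- and in WT, so this lower count comes from the genes left. With the replicate block the members called were 9 in each UUO comparison and 0 elsewhere, and no call changed. Over all probe sets the block moved the calls between TIMP3-/- UUO and WT UUO to 230, against 160 without it. Over all settings the log2 change with UUO in TIMP2-/- lay between 3.87 and 5.08 for Cd44, between 3.90 and 5.14 for Vcam1 and between 0.94 and 1.68 for Sox9. Signal over background limits the fold changes of members that are dim in sham kidneys, and the upper end of the scale limits Clu.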
